A study of Mus musculus with 16 samples.

Results

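Genes of the transport machinery of the primary cilium were followed in mouse embryo heads across 3 embryonic stages. The set holds every gene whose symbol is Ift or Bbs followed by a number, 14 and 8 genes, and 11 further genes picked by name for roles at the cilium, its base or its transcriptional control. This gave 33 genes of the 18193 that have at least 1 probe set naming that gene alone in the array annotation. For 3 of the 14 names on the list, Arl13b, Arl6 and Rpgrip1l, the annotation used here held no such probe set, and they were not analysed. The data are 6 arrays of E9.5 heads, 4 of E11.5 and 6 of E13.5, where E gives the day of embryonic development, and the submitters call the arrays of a stage biological replicates. The sources used here name no strain, genotype or treatment, and do not say how much tissue around the brain was included. RNA of E9.5 and E11.5 was labelled with the array maker's in vitro transcription kit and RNA of E13.5 with an amplification kit from Ambion, so stage and labelling kit cannot be told apart in any comparison with E13.5.

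The primary cilium is a thin antenna that most progenitor cells of the neural tube extend from a centriole, and hedgehog signals are received there. Its parts are not made inside it: trains of intraflagellar transport (IFT) proteins carry them to the tip and back, with IFT-B and kinesin-2 moving outward and IFT-A and dynein-2 moving inward. The BBSome rides on these trains and removes membrane receptors, the transition zone gates the entry, and RFX factors, with Foxj1 in cells that bear motile cilia, switch on many of the genes. Loss of such genes disturbs the patterning of the neural tube and face in mice.

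All levels below are log2 values of the deposited array intensities on the brightest probe set of a gene, and all differences are differences of these log2 values. The values of the 4 E11.5 arrays are given in the order of samples 33, 36, 51 and 52, and those of the 6 arrays of the other stages as lowest, median and highest. Levels of different genes are not compared, since each probe set has its own brightness. A difference was called at an adjusted p under 0.05 in limma, with Benjamini-Hochberg adjustment over all 18193 genes. Arrays carry no read depth, so the number of arrays limits the precision.

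Some E9.5 arrays stood apart from the rest of their stage. The first 2 principal components of all genes, with 65.3% and 21.2% of the variance, set the stages apart. How much of either came from labelling, which was different at E13.5, was not tested. The third (3.17%) separated E9.5 samples 13 and 15, at 26.01 and 22.54, from the other E9.5 samples, which lay between -16.29 and -6.90. Samples 13 and 15 lay above the other E9.5 arrays without overlap for Dync2h1, Ift122, Ift57, Mks1 and Rfx4, 5 members, where 18.1% of all genes did, and below them for 6 members, Bbs1, Bbs2, Bbs7, Ift27, Ift88 and Rfx3, where 12.5% did. E13.5 sample names begin with B62 or B63, and 3 members (Cep290, Dync2h1 and Rfx4) were higher in B63 without overlap, where 3.79% of all genes were. None of the 33 (0) was higher in B62, where 4.92% of all genes were. Control probe sets also differed by stage: the poly-A spike-ins averaged 8.12 ± 0.25 (SD, n = 6) at E9.5, 5.67 ± 0.15 (n = 4) at E11.5 and 5.40 ± 0.11 (n = 6) at E13.5. The probe sets for 18S ribosomal RNA averaged 7.25 ± 0.42, 10.19 ± 0.30 and 10.74 ± 0.16 (SD, n = 6, 4 and 6) at the successive stages, and the hybridisation controls ran from 10.04 to 11.45, from 11.15 to 11.74 and from 9.88 to 10.08. The part of these control levels in the results was not tested.

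The make-up of the heads changed at the same time. All 12 pan-neuronal markers rose from E9.5 to E11.5, and their summed intensity went from 1148 to 2641 at E9.5 to 9807 to 11270 at E11.5 and 17562 to 18745 at E13.5. Of 9 mitotic markers, 7 fell in the first interval and none (0) rose, with sums of 12601 to 13161, 8550 to 9441 and 7409 to 8075 at the successive stages. All 8 skeletal muscle markers rose from E11.5 to E13.5, from sums of 163 to 185 to sums of 5196 to 7292, and 8 of 10 mesenchyme markers did, from sums of 9412 to 10101 to sums of 26030 to 28792. Of 10 neural progenitor markers 6 rose and 3 fell in the first interval (median 0.63) and 3 rose and 6 fell in the second (median -0.66), with sums of 7745 to 9978, 13329 to 14197 and 12900 to 13584 at the successive stages. Of 7 erythroid markers 6 fell from E11.5 to E13.5 and none (0) rose, from sums of 27706 to 39116 to sums of 13833 to 17219. Of 8 choroid plexus markers 5 rose and 2 fell (Lmx1a, with a difference of -0.74, and Otx2, with -0.43) in that interval. Their sum went from 851 to 1762 at E11.5 to 3908 to 4580 at E13.5, and Ttr, which encodes a thyroid hormone carrier, went from a mean of 9.42 to one of 11.82. No marker can be at 0, since the lowest deposited intensity is 4. Their part in the results below was not tested, and in such whole-tissue samples fewer cells of a type and less RNA per cell cannot be told apart.

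The 33 genes did not move as a block. From E9.5 to E11.5, 8 of them rose, where 31.0% of all genes did, and 14 fell, where 26.9% did. The median difference was -0.10 over the members and 0.02 over all genes. Arrays of E9.5 and E11.5 did not overlap for 17 members, and did not for 37.7% of all genes. Among changes of at least 1.5-fold, 2 members rose and 9 fell, beside 15.2% and 12.9% of all genes. Centring each array on its median gave 5 members higher and 15 lower. Over all genes it gave 4842 higher and 5841 lower, where the main fit gave 5632 and 4887.

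From E11.5 to E13.5, 10 members rose, where 27.9% of all genes did, and 11 fell, where 27.0% did, with a median of -0.14 over the members and 0.00 over all genes. Arrays did not overlap for 16 members, and did not for 43.0% of all genes. Changes of at least 1.5-fold upward were found for 2 members and 14.0% of all genes, and downward for 7 members and 11.6% of all genes. The split was 8 higher and 14 lower after quantile normalization and 6 and 14 after median centring. Over all genes these settings gave 4761 and 5240, and 4310 and 5955, beside 5074 and 4906 in the main fit. With the name prefix of the E13.5 samples as a random block the members split into 5 and 10. The calls of Foxj1, Ift140, Ift172, Ift22, Ift57 and Ofd1 were lost. Calls were lost over all genes as well, leaving 4072 higher and 3814 lower. The fitted correlation within blocks was 0.60, and each array of the other stages was a block of its own.

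Over the whole interval from E9.5 to E13.5, 9 members rose, where 32.7% of all genes did, and 15 fell, where 29.1% did, with a median of -0.14 beside 0.01 over all genes. Arrays did not overlap for 20 members, and did not for 44.8% of all genes. Changes of at least 1.5-fold were upward for 2 members, beside 17.6% of all genes, and downward for 12, beside 14.9%. Quantile normalization gave 4 higher and 17 lower, and median centring 4 and 18. Over all genes these settings gave 5165 and 6075, and 4551 and 7627, beside 5944 and 5303 in the main fit. Median centring moved the median of all genes in this comparison from 0.01 to -0.14. The block by name prefix gave 4 higher and 15 lower and lost Bbs1, Dync2h1, Ift172, Ift43 and Inpp5e, whose differences lay between 0.20 and 0.31. Over all genes that block gave 4952 higher and 4306 lower. Without E9.5 samples 13 and 15 the splits of the 3 comparisons were 7 and 15, 10 and 13, and 6 and 15. Over all genes they were 5808 and 4896, 5360 and 5196, and 6076 and 5167.

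**Figure D1:**
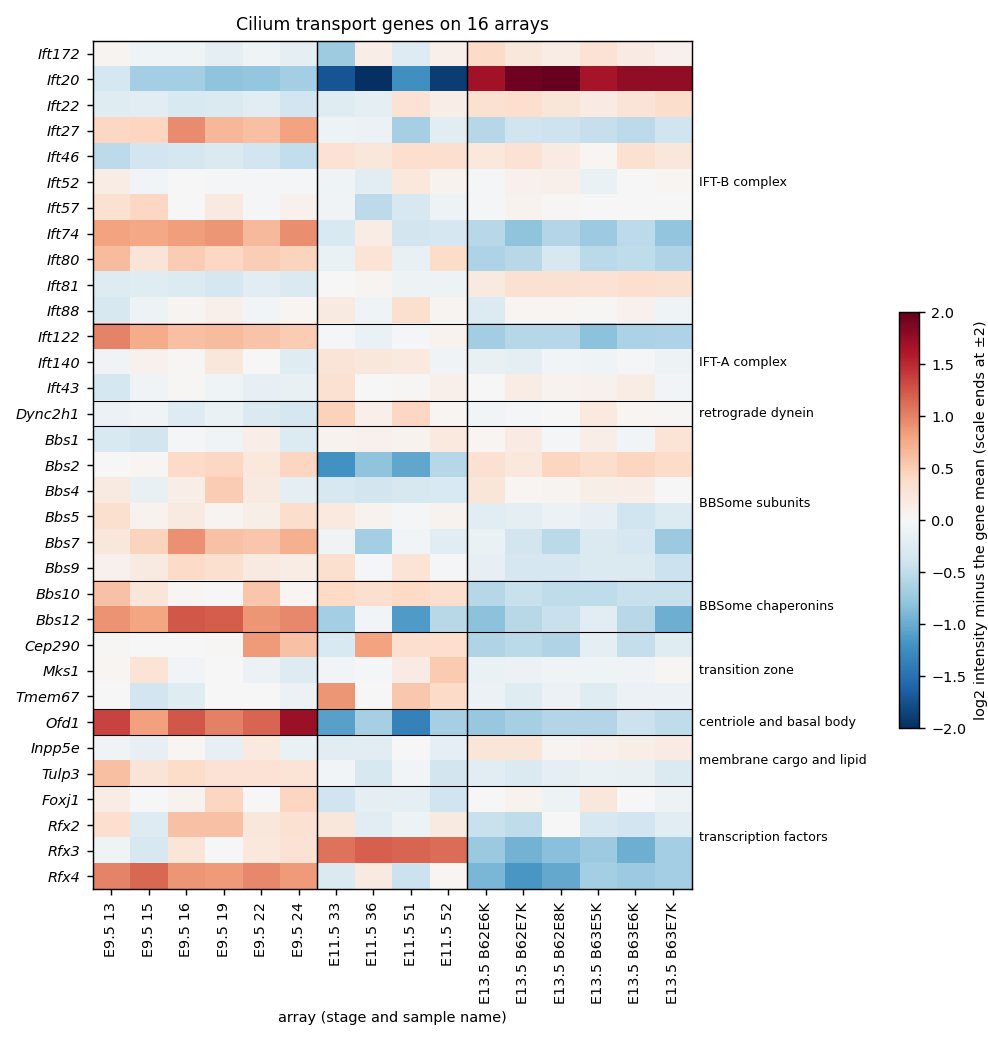
Log2 intensity of the 33 genes (rows, grouped by role) on each of 16 arrays (columns, grouped by stage), shown as the difference from the gene's mean over all arrays, with the colour scale ending at ±2. Ift20 stands out at E13.5, Rfx3 at E11.5 and Ofd1, Rfx4, Bbs12 and Ift74 at E9.5, while Ift52, Ift88 and Mks1 stay pale throughout.

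Rfx3, an RFX factor needed for nodal and ependymal cilia, peaked at E11.5. Its E9.5 arrays ran from 8.65 through a median of 9.07 to 9.26, its E11.5 arrays read 10.06, 10.17, 10.13 and 10.08, and its E13.5 arrays ran from 7.99 through 8.18 to 8.29. No stage overlapped with another. Rfx3 rose by 1.08 ± 0.11 (SE, adjusted p = 2.9e-08) and then fell by 1.96 ± 0.11 (adjusted p = 5.5e-12), a 3.89-fold drop that left E13.5 0.88 below E9.5. Its dimmer probe set, at intensities of 10 to 29, fell by 0.99 in the second interval as well, while its difference of 0.23 in the first was not called.

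Rfx4, the RFX factor best known from the developing neural tube, fell in each interval. At E9.5 it ran from 8.29 through 8.37 to 8.59, at E11.5 it read 7.15, 7.63, 7.02 and 7.48, and at E13.5 it ran from 6.29 through 6.63 to 6.77. The stages formed separate bands in descending order. The falls were 1.07 ± 0.12 (SE, adjusted p = 1.9e-07) and 0.74 ± 0.12 (adjusted p = 2.5e-05), together 3.5-fold. The dimmer Rfx4 probe set fell by 0.58 over the whole interval and by 0.39 in its first part, with a difference of -0.19 that was not called in the second.

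Rfx2 is an RFX factor of motile cilia and sperm flagella, and its intensities lay on either side of the array median of 32. Foxj1, the master regulator of motile cilia, was close to the dim end of the array. The lower quartile of intensity is 12, or 3.58 on this scale. Rfx2 ran from 4.64 through 5.23 to 5.49 at E9.5, read 5.13, 4.70, 4.81 and 5.09 at E11.5 and ran from 4.39 through 4.55 to 4.91 at E13.5. Its groups overlapped, and only the whole interval was called, at -0.61 ± 0.13 (SE, adjusted p = 3.1e-04). The first step was called without E9.5 sample 15 (-0.38), and the second without E9.5 sample 15 (-0.34), 16 (-0.34) or 19 (-0.34), E11.5 sample 36 (-0.41) or E13.5 sample B62E8K (-0.40). Rfx2 has 4 probe sets, of which 1 was 0.57 higher at E13.5 than at E11.5 while 2 others fell by 0.26 and 0.81, all called, but these 3 probe sets read intensities of only 7 to 21. Foxj1 ran from 4.09 through 4.21 to 4.52 at E9.5, read 3.70, 3.91, 3.91 and 3.70 at E11.5 and ran from 4.00 through 4.09 to 4.32 at E13.5. The E11.5 arrays were below all others, with a fall of 0.47 ± 0.10 (adjusted p = 5.2e-04) followed by a rise of 0.31 ± 0.10 (adjusted p = 0.0147).

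**Figure D2:**
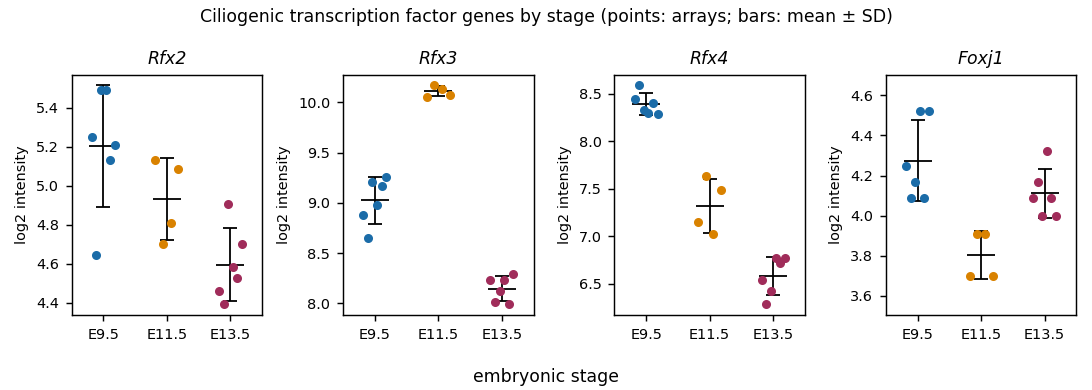
Log2 intensity (vertical axes, each with its own range) of the 4 transcription factor genes by embryonic stage, with a point per array and bars for mean ± SD (n = 6, 4 and 6). Rfx3 peaks at E11.5 near 10.1, Rfx4 steps down at each stage, and Rfx2 and Foxj1 lie below 5.6 at every stage.

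RFX factors bind the X-box, a motif with an inverted repeat, and its core GTTGCC was looked up in the promoters of the members. RefSeq promoter windows of the build GRCm38.p6, which reach from 250 bases before to 50 bases after each transcription start, were matched for 28 of the 33 genes. Foxj1, Ift122, Ift80, Ift81 and Tmem67 had no window in the table. The core, read on both strands (its reverse complement is GGCAAC), was in the windows of 12 of the 28 members (42.9%), and in those of 2123 of 14452 genes on the array (14.7%). The full X-box was in 2 of the 28 (7.14%) and in 2.04% of the array genes, and its shares in other lists of cilium genes are given below. All X-boxes printed below begin with the core, so both counts overlap, and a match of letters is a description, not a measured binding site.

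The strips that hold a full X-box are those of Ift57, a peripheral IFT-B subunit, which has a pair of them, and of Bbs1, the BBSome subunit that contacts cargo. They are printed 5′ to 3′ on the gene's strand, with the X-box in capitals. The Ift57 strips are at chr16:49699187-49699240 and chr16:49699214-49699266 on the plus strand and the Bbs1 strip is at chr19:4906593-4906646 on the minus strand. Counted from the transcription start as 0, the X-boxes begin at -87 and -60 in Ift57 and at 1 in Bbs1.
Ift57: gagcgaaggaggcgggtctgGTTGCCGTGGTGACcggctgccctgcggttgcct
Ift57: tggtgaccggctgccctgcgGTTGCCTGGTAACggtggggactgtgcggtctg
Bbs1: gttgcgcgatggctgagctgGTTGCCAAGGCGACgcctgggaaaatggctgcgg

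Strips with the core alone are shown for the RFX gene Rfx3 itself and for a transport gene of each kind of course described below: Ift27, a GTPase-like IFT-B subunit that fell, Ift172, the largest IFT-B subunit, whose rise was small, and Dync2h1, the dynein-2 heavy chain, which rose early. Capitals mark the core on either strand. All lie on the minus strand of the build, at chr19:28011117-28011150 (Rfx3), chr15:78174070-78174105 (Ift27), chr5:31291094-31291129 (Ift172) and chr9:7177009-7177037 (Dync2h1). The core begins at 31, -9, 0 and 36 in this order.
Rfx3: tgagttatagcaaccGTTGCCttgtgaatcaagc
Ift27: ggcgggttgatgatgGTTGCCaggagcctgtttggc
Ift172: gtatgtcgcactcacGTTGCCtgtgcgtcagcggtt
Dync2h1: atagcgacggagcttGGCAACtgctgagt

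Genes with the core in their window went both ways. Over the whole interval 3 of the 12 rose and 5 fell, and of the 16 whose window lacks the core 5 rose and 8 fell, where 32.7% of all genes rose and 29.1% fell. The other lists of cilium genes held the core in 44.4% of windows for further IFT subunits and motors, 50% for further transition zone genes, 56.5% for genes of the motile axoneme, 55.6% for genes of cilium disassembly and block, 28.6% for basal body genes and 18.2% for further BBSome genes and partners. In hedgehog pathway genes it was in 0% of 11 windows. The full X-box was in 34.8% of windows for motile axoneme genes, 33.3% for further transition zone genes and 18.2% for further BBSome genes and partners. It was in 7.14% for basal body genes and 5.56% for further IFT subunits and motors. For genes of disassembly and block and for hedgehog genes it was in 0%.

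Among the 11 IFT-B genes, the outward train, Ift20 had the widest range. Its product is the IFT-B subunit that also sits at the Golgi, where ciliary membrane cargo is sorted. Ift20 ran from 6.09 through 6.21 to 6.54 at E9.5, read 5.17, 4.91, 5.67 and 5.0 at E11.5 and ran from 8.55 through 8.67 to 8.89 at E13.5. No array of a stage overlapped with those of another. It fell by 1.04 ± 0.12 (SE, adjusted p = 5.1e-07) and then rose by 3.51 ± 0.12 (adjusted p = 1.2e-14), which is 11.4-fold, to end 5.54-fold above E9.5. The array names a single probe set for Ift20, so no other probe set of the gene could be set beside it, and the rise spans the change of labelling kit.

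Ift74 and Ift81 encode partners of a coiled-coil pair that binds tubulin cargo, and they parted ways. Ift74 ran from 9.16 through 9.33 to 9.43 at E9.5, read 8.20, 8.65, 8.14 and 8.17 at E11.5 and ran from 7.70 through 7.85 to 7.99 at E13.5. It was lower at each later stage without overlap, with falls of 1.03 ± 0.10 (SE, adjusted p = 2.6e-08) and 0.45 ± 0.10 (adjusted p = 7.2e-04). Ift81 ran from 8.41 through 8.47 to 8.53, read 8.73, 8.79, 8.64 and 8.64, and ran from 8.92 through 9.03 to 9.08. It stepped up without overlap, by 0.23 ± 0.07 (adjusted p = 0.00579) and 0.32 ± 0.07 (adjusted p = 3.7e-04). The other 2 Ift81 probe sets did not share this course: from E9.5 to E13.5 they differed by 0.01 and -0.08 and were not called, and the dimmest, at intensities of 9 to 21, rose by 0.47 and then fell by 0.55.

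Ift46, a core subunit known in Chlamydomonas for carrying dynein arms, rose early and stayed up. It ran from 8.42 through 8.56 to 8.65 at E9.5, read 9.23, 9.17, 9.27 and 9.26 at E11.5 and ran from 8.97 through 9.16 to 9.23 at E13.5. The E9.5 arrays were all below the rest. The rise was 0.70 ± 0.07 (SE, adjusted p = 9.5e-08), the second difference was -0.09 (adjusted p = 0.315), and the difference between both steps was itself called (-0.79, adjusted p = 4.4e-05).

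Ift27, which with the BBSome brings receptors out of the cilium, fell early on its brightest probe set. It ran from 9.15 through 9.38 to 9.69 at E9.5, read 8.64, 8.63, 8.07 and 8.52 at E11.5 and ran from 8.16 through 8.30 to 8.35 at E13.5. E9.5 lay above both later stages, which overlapped. The first difference was -0.92 ± 0.12 (SE, adjusted p = 1.0e-06) and the second was -0.19 (adjusted p = 0.185). Without E11.5 sample 51 the second difference was -0.32 and was called (adjusted p = 0.0164). Both other Ift27 probe sets fell in each interval, 1 by 0.50 and then 0.33, and the dimmest by 0.705 and then 0.99.

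Ift80, a peripheral IFT-B subunit whose human gene is mutated in a skeletal ciliopathy, ran from 7.69 through 7.90 to 8.06 at E9.5, read 7.30, 7.71, 7.28 and 7.80 at E11.5 and ran from 6.82 through 6.89 to 7.11 at E13.5. The E13.5 arrays were below all others, while E9.5 and E11.5 overlapped. It fell by 0.37 ± 0.10 (SE, adjusted p = 0.00516) and by 0.61 ± 0.10 (adjusted p = 4.8e-05). Its dimmer probe set fell by 1.58 in the second interval and stood at 0.19, not called, in the first.

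Smaller rises were seen for Ift22, a Rab-like subunit, and for Ift172. Ift22 ran from 7.41 through 7.52 to 7.58 at E9.5, read 7.55, 7.61, 8.08 and 7.92 at E11.5 and ran from 7.95 through 8.08 to 8.14 at E13.5. E9.5 and E13.5 did not overlap (0.55 ± 0.08, SE, adjusted p = 6.4e-06), but each single step of 0.27 and 0.28 rested on few arrays. The first was not called without E11.5 sample 51 (0.18) or 52 (0.23), nor the second without E11.5 sample 33 (0.20) or 36 (0.22). Ift172 ran from 7.18 through 7.28 to 7.43, read 6.66, 7.51, 7.11 and 7.47, and ran from 7.45 through 7.57 to 7.75. It was 0.31 ± 0.11 higher at E13.5 than at E9.5 (adjusted p = 0.0194), and its rise of 0.40 from E11.5 was 0.22 and not called without E11.5 sample 33.

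The other IFT-B genes were Ift57, Ift52 and Ift88. Ift57 fell by 0.42 ± 0.10 (SE, adjusted p = 0.00128), with no overlap between E9.5 and E11.5. It then rose by 0.27, and the rise was not called without E11.5 sample 36 (0.18) or 51 (0.25). Its dimmer probe set differed by -0.20 and 0.23 in the successive intervals, and neither was called. Ift52 and Ift88, both core subunits, were among the 3 members not called in any comparison. Ift52 differed by -0.01 and 0.02 in the successive intervals and Ift88 by 0.17 and -0.15. From E9.5 to E13.5 the differences of both were 0.02 ± 0.08 and 0.02 ± 0.09 (SE).

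In IFT-A, the complex of the inward journey that also carries receptors in, Ift122 fell at each step. Ift122 ran from 7.86 through 7.97 to 8.34 at E9.5, read 7.34, 7.22, 7.31 and 7.43 at E11.5 and ran from 6.54 through 6.73 to 6.79 at E13.5. The 3 stages did not overlap. The falls were 0.70 ± 0.09 (SE, adjusted p = 1.2e-06) and 0.62 ± 0.09 (adjusted p = 7.2e-06), 2.5-fold in all, and its dimmer probe set fell by 1.0 and 1.58. Ift43 was 0.23 higher at E11.5 than at E9.5 (adjusted p = 0.0228), a call lost without E11.5 sample 33 (0.17). Ift140 was 0.25 lower at E13.5 than at E11.5 (adjusted p = 0.0217), a call lost without E11.5 sample 33 (-0.22), 36 (-0.23) or 51 (-0.24), and it was 0.23 higher at E11.5 than at E9.5, and called, without E11.5 sample 52.

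Dync2h1, the motor subunit of the inward dynein, was highest at E11.5. It ran from 7.52 through 7.66 to 7.79 at E9.5, read 8.32, 7.96, 8.27 and 7.89 at E11.5 and ran from 7.81 through 7.87 to 8.06 at E13.5. E9.5 lay below both later stages, which overlapped. The rise was 0.45 ± 0.09 (SE, adjusted p = 3.0e-04) and the second difference -0.22 ± 0.09 (adjusted p = 0.0535). From E9.5 to E13.5 the rise was 0.23 (adjusted p = 0.0187) and was 0.20 and not called without E13.5 sample B63E5K. That second difference was -0.27 without E11.5 sample 36, -0.29 without sample 52 and -0.25 without E13.5 sample B63E5K, and was called in each of these cases.

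**Figure D3:**
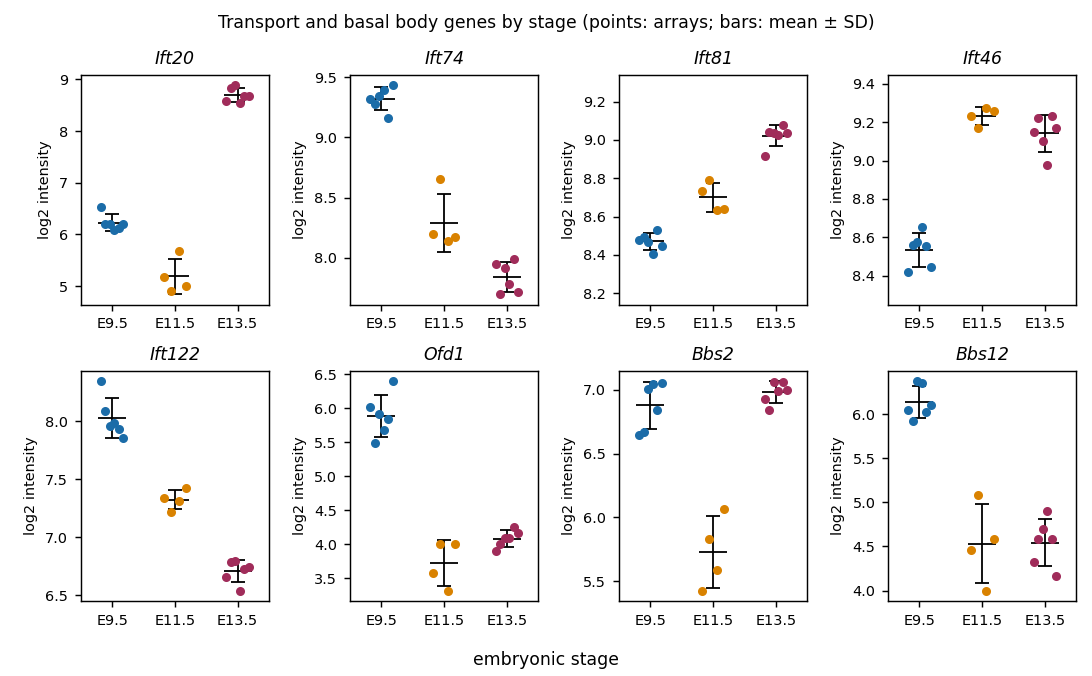
Log2 intensity (vertical axes, each with its own range) by embryonic stage for 8 transport, BBSome and basal body genes, with a point per array and bars for mean ± SD (n = 6, 4 and 6). Ift20 dips at E11.5 and stands near 8.7 at E13.5, Ift74 and Ift122 step down, Ift81 steps up, and Bbs12 and Ofd1 drop once.

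Of the 6 BBSome subunits, Bbs2 and Bbs4 were lowest at E11.5. Bbs2, a subunit of the core that is assembled on chaperonins, ran from 6.64 through 6.93 to 7.06 at E9.5, read 5.43, 5.83, 5.58 and 6.07 at E11.5 and ran from 6.85 through 6.99 to 7.07 at E13.5. The E11.5 arrays were below all others, and the flanking stages overlapped. It fell by 1.15 ± 0.11 (SE, adjusted p = 3.8e-08) and rose by 1.26 ± 0.11 (adjusted p = 1.2e-08), leaving 0.10 between E13.5 and E9.5 (adjusted p = 0.397). Bbs4, the subunit found on centriolar satellites, ran from 6.66 through 7.0 to 7.34, read 6.52, 6.48, 6.52 and 6.54, and ran from 6.83 through 6.92 to 7.08. Its fall of 0.44 and rise of 0.42 were called, but its 4 probe sets did not move alike: 1 of the dimmer ones rose by 0.70 in the first interval, and 2 ended 1.08 and 1.0 higher at E13.5 than at E9.5.

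The remaining BBSome subunits differed among themselves. Bbs7, a core subunit next to Bbs2, fell by 0.83 ± 0.14 from E9.5 to E11.5 (SE, adjusted p = 3.4e-05), while its dimmer probe set differed by -0.10 and was not called. That probe set read intensities of 6 to 10, below the lower quartile of 12 on all 16 arrays. Bbs5, which binds membrane lipids, and Bbs9, a scaffold subunit, were 0.41 ± 0.07 and 0.52 ± 0.08 lower at E13.5 than at E9.5 (SE, adjusted p = 6.2e-05 and 7.1e-06), and their E13.5 arrays did not overlap with those of E9.5. Bbs1 ran from 5.61 through 5.80 to 6.11 at E9.5, read 6.04, 6.07, 6.04 and 6.17 at E11.5 and ran from 5.93 through 6.07 to 6.25 at E13.5. Its groups overlapped, and its rise of 0.26 at E11.5 (adjusted p = 0.0293) was not called without E9.5 sample 13 (0.22), 15 (0.21) or 24 (0.23) or without E11.5 sample 52 (0.23). It was 0.24 higher at E13.5 than at E9.5 (adjusted p = 0.0194), a call lost without E9.5 sample 15 (0.20) or E13.5 sample B63E7K (0.21).

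Bbs10 and Bbs12 encode chaperonin-like proteins that help assemble the BBSome. Bbs12 ran from 5.93 through 6.08 to 6.38 at E9.5, read 4.46, 5.09, 4.00 and 4.58 at E11.5 and ran from 4.17 through 4.58 to 4.91 at E13.5. E9.5 lay above both later stages, which overlapped. It dropped by 1.61 ± 0.17 (SE, adjusted p = 6.2e-08), or 3.05-fold, with a second difference of 0.01 (adjusted p = 0.959). Bbs10 ran from 4.95 through 5.10 to 5.55, read 5.36, 5.29, 5.36 and 5.29, and ran from 4.39 through 4.49 to 4.52, with E13.5 below all other arrays. It fell by 0.84 ± 0.11 from E11.5 to E13.5 (adjusted p = 1.5e-06). On its dimmer probe set the fall came earlier, -1.09 in the first interval and -0.22, not called, in the second, and both probe sets were lower at E13.5 than at E9.5.

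At the transition zone, the gate at the ciliary base, Cep290 was lower at E13.5. Cep290, a linker between microtubules and membrane, ran from 5.04 through 5.09 to 5.91 at E9.5, read 4.75, 5.86, 5.39 and 5.39 at E11.5 and ran from 4.46 through 4.55 to 4.86 at E13.5. E13.5 lay below E9.5 without overlap and overlapped with E11.5 through sample 33. The fall from E11.5 was 0.73 ± 0.19 (SE, adjusted p = 0.00229). Tmem67, a membrane receptor of the zone, ran from 3.32 through 3.64 to 3.70, read 4.58, 3.70, 4.25 and 4.09, and ran from 3.46 through 3.58 to 3.58. Its higher values at E11.5 (0.58 and -0.61 in the successive steps, both called) were at the dim end, with 3 of the E9.5 and all 6 of the E13.5 arrays at or below the lower quartile. Mks1, a subunit of the zone's membrane complex, was not called in any comparison, with differences of 0.17 and -0.22, though the second was called without E11.5 sample 33 (-0.29) or 36 (-0.29).

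Ofd1, which limits centriole length at the base of the cilium, showed the largest fall of the 33 genes from E9.5 to E11.5. It ran from 5.49 through 5.87 to 6.39 at E9.5, read 3.58, 4.00, 3.32 and 4.00 at E11.5 and ran from 3.91 through 4.09 to 4.25 at E13.5. E9.5 was above all later arrays. The fall was 2.16 ± 0.15 (SE, adjusted p = 2.2e-10), or 4.47-fold, and 2 of the 4 E11.5 arrays were at or below the lower quartile of the array. The rise of 0.36 that followed was at the threshold (adjusted p = 0.0495) and was not called without E9.5 sample 13, 16, 19 or 22, without E11.5 sample 33 or 51, or without any E13.5 sample but B62E6K, with values from 0.22 to 0.37.

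Tulp3 and Inpp5e act at the ciliary membrane, Tulp3 as the adaptor that hands receptors to IFT-A and Inpp5e as the phosphatase that sets the lipid make-up. Tulp3 fell by 0.54 ± 0.09 in the first interval (SE, adjusted p = 2.2e-05), and its other 2 probe sets, at intensities of 42 to 59 and of 11 to 18, differed by 0.03 and -0.12 and were not called. Inpp5e rose by 0.31 ± 0.08 in the second (adjusted p = 0.00382), whereas its dimmer probe set rose by 0.49 in the first. From E9.5 to E13.5 both Inpp5e probe sets were higher, by 0.20 and 0.55. The call at 0.20 was lost without E9.5 sample 15 (0.18), 19 (0.18) or 24 (0.18) or without E13.5 sample B62E6K (0.18) or B62E7K (0.18).

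The course over time was tested gene by gene as the difference between both steps, which share the E11.5 arrays. It was called for 18 of the 33 genes and for 53.2% of all genes. The stages differed by the limma F test for 30 members, all but Ift52, Ift88 and Mks1, and for 75.8% of all genes. The steps of Ift20 differed most, by 4.56 ± 0.22 (SE, adjusted p = 5.8e-12), followed by those of Rfx3 at -3.05 ± 0.19 (adjusted p = 1.3e-10) and of Ofd1 at 2.52 ± 0.27 (adjusted p = 1.5e-07).

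**Figure D4:**
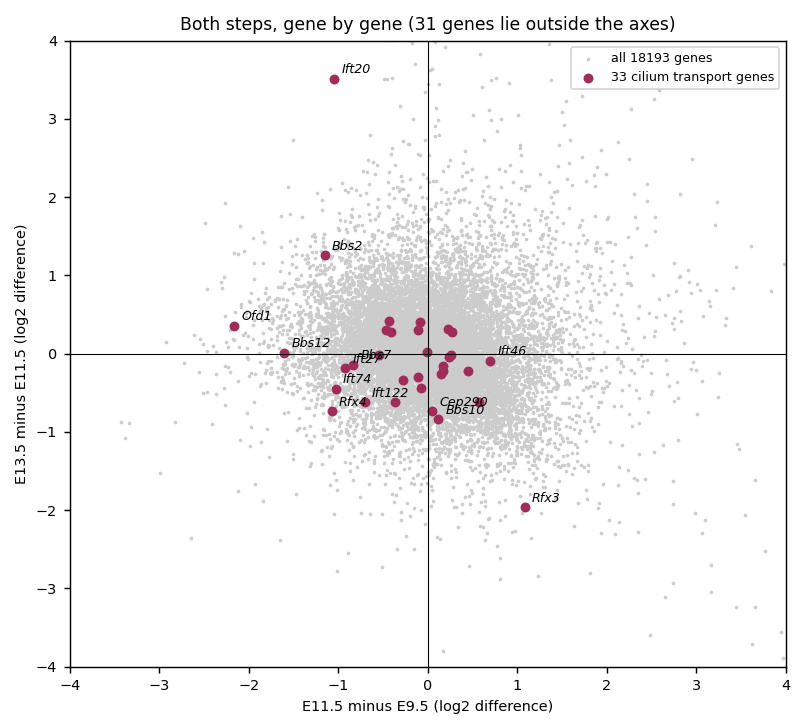
Log2 difference from E9.5 to E11.5 (horizontal axis) against that from E11.5 to E13.5 (vertical axis) for all 18193 genes (grey) and the 33 cilium transport genes (red), with 31 genes outside the axes. Both differences share the E11.5 arrays, so their signs are not independent. Ift20 lies at -1.04 and 3.51, Rfx3 at 1.08 and -1.96, and most members lie within 1 of the centre.

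Probe sets of the same gene were compared where the array has several, which holds for 13 of the members. Of 10 such members called from E9.5 to E11.5, 5 had another probe set called in the same direction and 1, Bbs4, also had one called in the opposite direction. From E11.5 to E13.5 these counts were 4 and 1 (Ift81) of 9, and over the whole interval 9 and 0 of 11. The falls of Bbs10, Ift122, Ift27, Ift80, Rfx3 and Rfx4 from E9.5 to E13.5 were each called on every probe set of the gene. The other 20 members, among them Ift20, Ift74, Ift46, Bbs2, Bbs12 and Ofd1, have 1 probe set each.

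**Figure D5:**
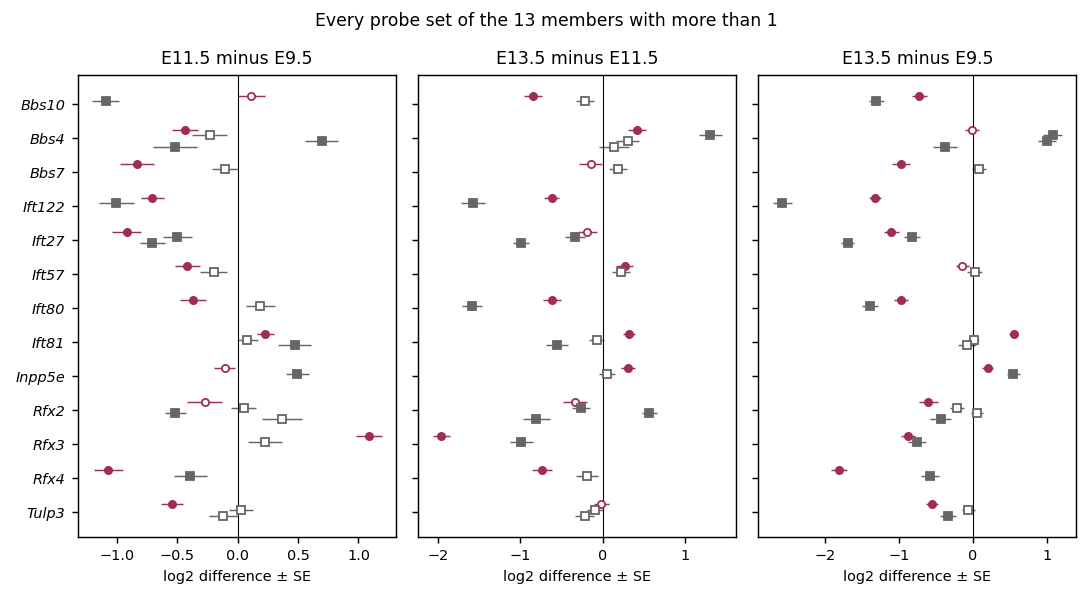
Log2 difference ± SE on every probe set of the 13 members with several, for the 3 comparisons of stages, with red circles for the brightest probe set, grey squares for the others and filled symbols for those called at an adjusted p under 0.05. All probe sets of Bbs10, Ift122, Ift27, Ift80, Rfx3 and Rfx4 are called lower at E13.5 than at E9.5. Those of Bbs4 and Ift81 spread to both sides of or around 0.

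Other genes of the cilium gave a setting for the members. Of 20 further IFT subunits and motors, 2 rose and 9 fell from E9.5 to E11.5, where 31.0% and 26.9% of all genes did, and 7 rose and 6 fell from E11.5 to E13.5, where 27.9% and 27.0% did. The kinesin-2 that pulls the outward trains, and that also carries cargo in axons, is built from Kif3a, Kif3b and Kifap3. Kif3a, a motor subunit, rose by 1.25 ± 0.07 from E11.5 (SE, adjusted p = 7.2e-12), and Kifap3, the adaptor, was 1.25 ± 0.06 higher than at E9.5 (adjusted p = 6.1e-13). All 4 probe sets of Kif3a and both of Kifap3 rose from E11.5 to E13.5. Kif3b, the other motor subunit, differed by 0.13 in that interval and was not called, and its 3 dimmer probe sets differed by -0.94, -0.12 and -0.82, of which the first and the last were called. Dynlrb1, a light chain shared by dynein-2 and the cytoplasmic dynein, rose by 1.58 ± 0.07 in that interval (adjusted p = 2.5e-13). Kif17, a second kinesin-2, rose by 1.54 ± 0.17 to E11.5 (adjusted p = 2.0e-07) and then fell by 0.92 ± 0.17 (adjusted p = 1.3e-04), though 1 of its 3 probe sets was not called in either step. The dynein-2 gene Wdr34 fell by 0.65 ± 0.13 (adjusted p = 2.8e-04) and then rose by 1.20 ± 0.13 (adjusted p = 1.9e-07). The IFT-B genes Ttc26 and Ttc30a1, in contrast, were 1.43 ± 0.10 and 1.31 ± 0.10 lower at E13.5 than at E9.5 (adjusted p = 6.0e-11 and 4.9e-10).

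Further BBSome genes and partners leaned downward over the whole interval, with 9 of 14 lower and 2 higher, as did further transition zone genes, with 9 of 18 lower and 3 higher, where 29.1% of all genes were lower and 32.7% higher. Their medians were -0.41 and -0.12, beside 0.01 over all genes. Rpgrip1, a transition zone protein of photoreceptors, fell by 2.72 on its brightest probe set from E11.5 to E13.5 (adjusted p = 9.9e-15), and Bbip1, the smallest BBSome subunit, fell by 2.18 (adjusted p = 2.5e-13). The 3 dimmer Rpgrip1 probe sets differed by 0.054, -0.093 and -0.23 and were not called, and the dimmer Bbip1 probe sets by 0.41 and -0.44. Of 16 genes of the basal body and the start of ciliogenesis, 3 were higher and 5 lower at E13.5 than at E9.5, beside the same shares of all genes.

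Genes that take the cilium apart or hold its assembly back, the latter among them Ccp110 and Cep97, were mostly lower at E13.5. Of 9 measured, 8 were lower at E13.5 than at E9.5, where 29.1% of all genes were, and none (0) was higher, where 32.7% were, with a median of -0.64. Aurka, the kinase that starts disassembly, fell by 1.62 ± 0.07 (SE, adjusted p = 2.1e-14), Nek2 by 1.58 ± 0.12 (adjusted p = 4.3e-10) and Plk1 by 1.43 ± 0.09 (adjusted p = 1.3e-11). These 3 are also mitotic kinases, and all 9 mitotic markers fell over the same interval. A dimmer probe set of Aurka differed by -0.10 and 1 of the 4 of Nek2 by 0.07, neither called.

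Of 14 hedgehog pathway genes that signal through the cilium, 6 were higher and 7 lower at E13.5 than at E9.5, where 32.7% and 29.1% of all genes were. Among those higher, on their brightest probe sets, were Boc (1.03 ± 0.09, SE, adjusted p = 2.7e-09) and Gpr161 (0.76 ± 0.08, adjusted p = 1.9e-08). Shh, the ligand, rose by 1.24 ± 0.10 to E11.5 (SE, adjusted p = 3.7e-09) and fell by 2.85 ± 0.10 to E13.5 (adjusted p = 1.7e-14), although its dimmer probe set did not rise in the first interval (-0.42). Ptch1, receptor and target gene of the pathway, was 1.23 ± 0.07 lower at E13.5 than at E9.5 (adjusted p = 9.3e-12), and all 3 of its probe sets were.

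Genes of the motile axoneme, 26 in number, summed to only 593 to 658 at E9.5, 644 to 756 at E11.5 and 704 to 759 at E13.5. Of these, 7 were higher and 6 lower at E13.5 than at E9.5, where 32.7% and 29.1% of all genes were, with a median of 0.02. At each stage 5 of them were at or below the lower quartile on every array, among them the radial spoke gene Rsph4a and the central pair gene Spag6.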

How the data were processed

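Total RNA of 16 embryo head samples was measured on Affymetrix mouse arrays of 45101 probe sets. The deposited values are linear intensity values in whole numbers, for which the submitters' processing notes name RMA as the authors' method. Its version, settings and chip description are not stated there. RMA makes arrays comparable relative to one another, so values show shares of the RNA and not amounts per embryo, and rounding makes coarse steps at the dim end (lower quartile 12, median 32). All arrays were used, with 0 sample columns left out and 0 identical pairs.

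The log2 of the deposited values was taken. Of the probe sets, 64 are controls, 34945 name 1 gene, 932 name several and were not used, and 9160 are unnamed in the table used here. Updating symbols through RefSeq identifiers changed 0 names. Each of 18193 genes was represented by its brightest probe set over all arrays. No filter on low values was applied, so all 33 members were tested. With the dimmest 25% of genes left out, 32 members passed and Tmem67 did not.

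The 3 stages were fitted in 1 model in limma 3.58.1 (R 4.3.3) with lmFit, contrasts.fit and eBayes, after a test on simulated data, with Benjamini-Hochberg adjustment over all genes. The genes given with their arrays are the 4 transcription factors and, for each comparison, the 6 called members that rose most and the 6 that fell most. In other lists up to 3 called genes that changed most per comparison could be named, and some of them are. Members, lists and tests were chosen with earlier results of these data known, so none is independent of them. Alternatives covered normalization, choice of probe set, dim genes, array weights, variance model, the sample-name prefix as a random block and left-out arrays. Promoter windows are RefSeq's (GRCm38.p6). The p-values measure the spread between these arrays.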

Additional observations from a re-analysis of the deposited data

Results flagged for a closer look

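Of 99 tests of a member within a stage, 9 marked an array far from the rest of its stage by Dixon's criterion, where chance marks about 1 in 20. E9.5 sample 13 accounts for 3 of them: Ift20 read 6.54 there (others 6.09 to 6.21), Ift52 read 7.97 (others 7.77 to 7.83) and Tulp3 read 8.23 (others 7.88 to 7.99). At E11.5, Ift74 read 8.65 in sample 36 (others 8.14 to 8.20) and Ift140 read 8.08 in sample 52 (others 8.36 to 8.41). At E13.5, Dync2h1 read 8.06 in B63E5K (others 7.81 to 7.89), Ift80 read 7.11 in B62E8K (others 6.82 to 6.92), Mks1 read 7.19 in B63E7K (others 7.03 to 7.09) and Ift81 read 8.92 in B62E6K (others 9.03 to 9.08).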

How the results depend on the processing

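Of 67 called differences of members between stages, 38 kept their direction and call under every alternative run, and 53 did under all those that do not change the probe set. Members higher from E9.5 to E11.5 numbered 5 after median centring and 5 with only the stages compared in the fit. From E11.5 to E13.5 they numbered 6 after median centring, 6 on the second-brightest probe set and 5 with the random block. Over the whole interval they numbered 4 after quantile normalization, 4 after median centring and 4 with the random block. Of all 18193 genes, 5017 were higher in the first interval with only the stages compared. On the second-brightest probe set 4563 were higher in the second interval. All-gene counts of the other settings named here are given above. Requiring at least 1.5-fold left 2 members higher in each comparison, with 9 lower in the first interval and 7 in the second. Leaving out single arrays, or E9.5 samples 13 and 15 together, gave 7 to 8, 7 to 10 and 6 to 9 members higher and 14 to 15, 11 to 13 and 15 lower in the 3 comparisons. Over all 18193 genes the same runs gave 5323 to 5808, 4832 to 5360 and 5709 to 6076 higher. They gave 4616 to 4903, 4660 to 5196 and 5065 to 5384 lower.

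The reversals came with the choice of probe set (mean of all, second-brightest, or without an _s_, _x_ or _a_ mark). A change of sign counts as a reversal if the main fit or the alternative called the difference. From E9.5 to E11.5 Bbs10 (-0.49, -1.09 and -1.09) and Inpp5e (mean 0.19, second 0.49) were called, where the main fit called neither. Ift80 (second 0.19) and Tulp3 (second 0.028) were called in the main fit only. From E11.5 to E13.5 Ift81 gave -0.10, -0.073 and -0.073, none of them called. Over the whole interval Bbs4 gave 0.42, 1.08 and 1.08, all called, where the main fit made no call. Bbs7 gave 0.079, not called, on the second, which reads below the lower quartile on all 16 arrays. The difference between both steps turned and was called for Bbs10 (second and unmarked 0.88), Ift81 (mean -0.36) and Inpp5e (second -0.44). It turned without a call for Inpp5e (mean -0.013) and Tulp3 (second -0.12). The cause was not tested. No paired analysis was possible because the stages share no replicate numbers.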
